A study of Mus musculus with 5 samples.

Results

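The genomic neighbourhoods of Pparg and of 4 of its established targets, Fabp4, Adipoq, Angptl4 and Pdk4, were examined for listed p300 and c-Jun binding sites in MS5 cells. A peak belonged to a gene's window when its centre lay inside fixed limits on the mouse build mm9. The limits, in Mb, were 115.26 to 115.50 on chromosome 6 for Pparg, 10.15 to 10.26 on chromosome 3 for Fabp4 and 23.10 to 23.21 on chromosome 16 for Adipoq. They were 33.87 to 33.95 on chromosome 17 for Angptl4 and 5.38 to 5.50 on chromosome 6 for Pdk4. The 5 windows together spanned 660 kb and held 86 of the 83829 peaks listed in the series. For p300, 23 were listed with pioglitazone against 29 without it, and for c-Jun 16 with pioglitazone against 18 without it.

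MS5 is an established mouse bone marrow stromal line, used here at passage 11 without any genetic change named in the labels. All 4 chromatin immunoprecipitation (ChIP-seq) libraries came from cells given TGF-β1 at 10 ng/mL for 5 h. In 1 p300 and 1 c-Jun library the cells also received pioglitazone, an agonist of PPARγ, at 20 ng/mL, and in the other two they did not. No cells without TGF-β1 were analysed here, only 1 library was made per antibody and treatment, and differences between treatments therefore carry no p-value. The whole lists held 21994 p300 peaks with pioglitazone against 31466 without it, and 13325 c-Jun peaks with pioglitazone against 17044 without it. The files give no read depth, and libraries of unequal depth or enrichment would yield lists of unequal length.

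PPARγ, the product of Pparg, is the nuclear receptor that drives fat cell formation. It binds DNA with its partner RXR at paired AGGTCA-like elements, and ligands such as thiazolidinediones favour the exchange of corepressors for coactivators, among them the histone acetyltransferase p300. c-Jun is a subunit of AP-1, a transcription factor that responds to growth factors and to TGF-β. Marrow stromal cells can become adipocytes, a fate that TGF-β restrains. The presence of the PPARγ protein in these cells was not measured in the lists.

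Pparg is transcribed from alternative promoters, of which the one farthest downstream serves the adipocyte isoform PPARγ2. RefSeq (GRCm38.p6) promoter sequences, each from 250 bases before to 50 bases after a start, were matched by symbol for 3 of the 5 genes. They numbered 5, with 3 for Pparg and 1 each for Adipoq and Pdk4. The 3 of Pparg are shown because they differ in letters that receptors and adipogenic factors are known to prefer. Capitals mark a single AGGTCA in the first and second sequence and TTGCNNAA, the C/EBP consensus, in the third. They belong to GRCm38 and the peaks to mm9, so no peak was placed on a promoter.
Pparg promoter A, chr6:115360894-115361193, plus strand: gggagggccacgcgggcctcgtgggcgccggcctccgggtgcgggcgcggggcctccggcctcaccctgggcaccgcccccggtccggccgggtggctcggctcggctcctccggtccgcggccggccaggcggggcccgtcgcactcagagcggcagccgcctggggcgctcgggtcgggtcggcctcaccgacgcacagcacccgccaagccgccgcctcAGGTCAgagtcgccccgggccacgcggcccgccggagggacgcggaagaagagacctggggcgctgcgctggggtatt
Pparg promoter B, chr6:115362099-115362398, plus strand: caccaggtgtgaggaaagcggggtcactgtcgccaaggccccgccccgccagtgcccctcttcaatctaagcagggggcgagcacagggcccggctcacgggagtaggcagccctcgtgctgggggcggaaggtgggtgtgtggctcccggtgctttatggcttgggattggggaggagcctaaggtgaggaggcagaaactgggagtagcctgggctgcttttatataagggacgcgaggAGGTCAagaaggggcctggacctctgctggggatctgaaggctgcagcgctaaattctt
Pparg promoter C, chr6:115421816-115422115, plus strand: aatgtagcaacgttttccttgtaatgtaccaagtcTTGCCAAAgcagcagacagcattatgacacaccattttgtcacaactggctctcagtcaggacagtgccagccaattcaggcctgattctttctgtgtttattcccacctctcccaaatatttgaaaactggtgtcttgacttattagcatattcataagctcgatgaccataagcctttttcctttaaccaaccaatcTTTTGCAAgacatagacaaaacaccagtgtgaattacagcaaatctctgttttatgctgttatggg
Both strands were searched. Promoter A, with 80.3% G and C, had AGGTCA beginning 28 bases before the start, and promoter B, with 62.7%, had it 9 bases before. Promoter C, with 40.3% G and C, had TTGCNNAA beginning 215 bases before the start and, on the opposite strand, 16 bases before. AGGTCA alone, a search added after the lists had been seen, was found in 16.3% of all 32851 promoters and TTGCNNAA in 10.8%. No member promoter held 2 copies of AGGTCA with 1 base between them, the PPAR-RXR element, even with up to 2 mismatches, which 3.86% of all promoters did. None held the AP-1 letters TGANTCA, found in 7.81%. These windows of 300 bases say nothing about elements elsewhere.

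Windows of 4 of the 5 genes were occupied in every list, and the Fabp4 window stood apart from them. Pparg had 12 p300 peaks with pioglitazone against 13 without it, and 9 c-Jun peaks in each treatment. Adipoq, which encodes the adipocyte hormone adiponectin, had 6 p300 peaks with pioglitazone against 7 without it. Its c-Jun peaks numbered 3 with pioglitazone against 6 without it. Angptl4, a secreted inhibitor of lipoprotein lipase, had 3 p300 peaks in each treatment, and 3 c-Jun peaks with pioglitazone against 2 without it. Pdk4, a kinase that switches off pyruvate dehydrogenase, had 2 p300 peaks with pioglitazone against 5 without it, and 1 c-Jun peak in each treatment. Fabp4, the fatty acid carrier of adipocytes, had 0 p300 peaks with pioglitazone against 1 without it, and 0 c-Jun peaks in either treatment. Only at Adipoq did the counts of both factors differ between treatments, and both were lower with pioglitazone. In every other window the count of 1 factor was equal, so opposite directions could not occur there.

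**Figure D1:**
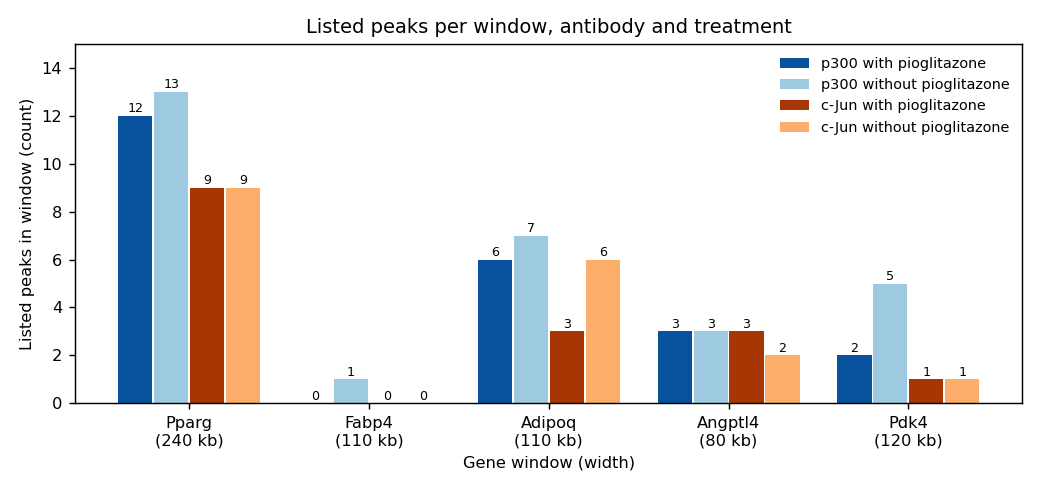
Bars give the number of listed peaks (vertical axis) in each of the 5 windows (horizontal axis, with the window width), by antibody and treatment. The Pparg window holds 12 and 13 p300 peaks with and without pioglitazone, and the Fabp4 window holds a single peak, in the p300 list without pioglitazone.

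Per unit length the 5 windows as a sum were more densely occupied than the genome as listed, while the Fabp4 window was below the whole-list density in all 4 lists. Over the 5 windows, for p300 there were 3.48 peaks per 100 kb with pioglitazone and 4.39 without it, where the whole lists had 0.835 with pioglitazone and 1.19 without it. For c-Jun there were 2.42 per 100 kb with pioglitazone and 2.73 without it, where the whole lists had 0.506 with pioglitazone and 0.647 without it. When the chromosomes were cut into tiles of 110 kb, the width of the Fabp4 and Adipoq windows, 39.3% of tiles held a p300 peak with pioglitazone and 46.1% without it. For c-Jun the shares were 31.5% with pioglitazone and 35.6% without it. A window with no peak, as for Fabp4 in 3 lists, was thus the more common state of the genome. The tiles and the whole-list densities include stretches without genes, and the 5 windows were placed on genes. The windows were also chosen with earlier results of these data known, so their higher density is a description only.

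The 86 peaks merged into 36 sites, a site being a chain of peaks of any list that overlap by at least 1 bp. Sites are numbered along each window, 17 for Pparg, 1 for Fabp4, 9 for Adipoq, 4 for Angptl4 and 5 for Pdk4. Of the 36, 13 (36.1%) were in all 4 lists, where 5762 of the 44718 sites of the series (12.9%) were. These 13 comprised 7 at Pparg, 3 at Adipoq, 2 at Angptl4 and 1 at Pdk4. The shares of sites were not adjusted for place in the list, with which sharing varied. For p300 without pioglitazone, 3.81% of peaks in the first 10% of rows had no counterpart with pioglitazone, against 86.7% in the last 10%. The next most frequent kind, p300 without pioglitazone and nothing else, made up 9 of the 36, against 25.7% of all sites in the series. p300 in both treatments with no c-Jun was seen at 4 sites (11.1%, against 13.4% of the series), and p300 with pioglitazone alone at 3 (8.33%, against 10.6%). c-Jun was listed away from any p300 peak of either treatment at 3 sites (8.33%), against 16.7% of the series.

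**Figure D2:**
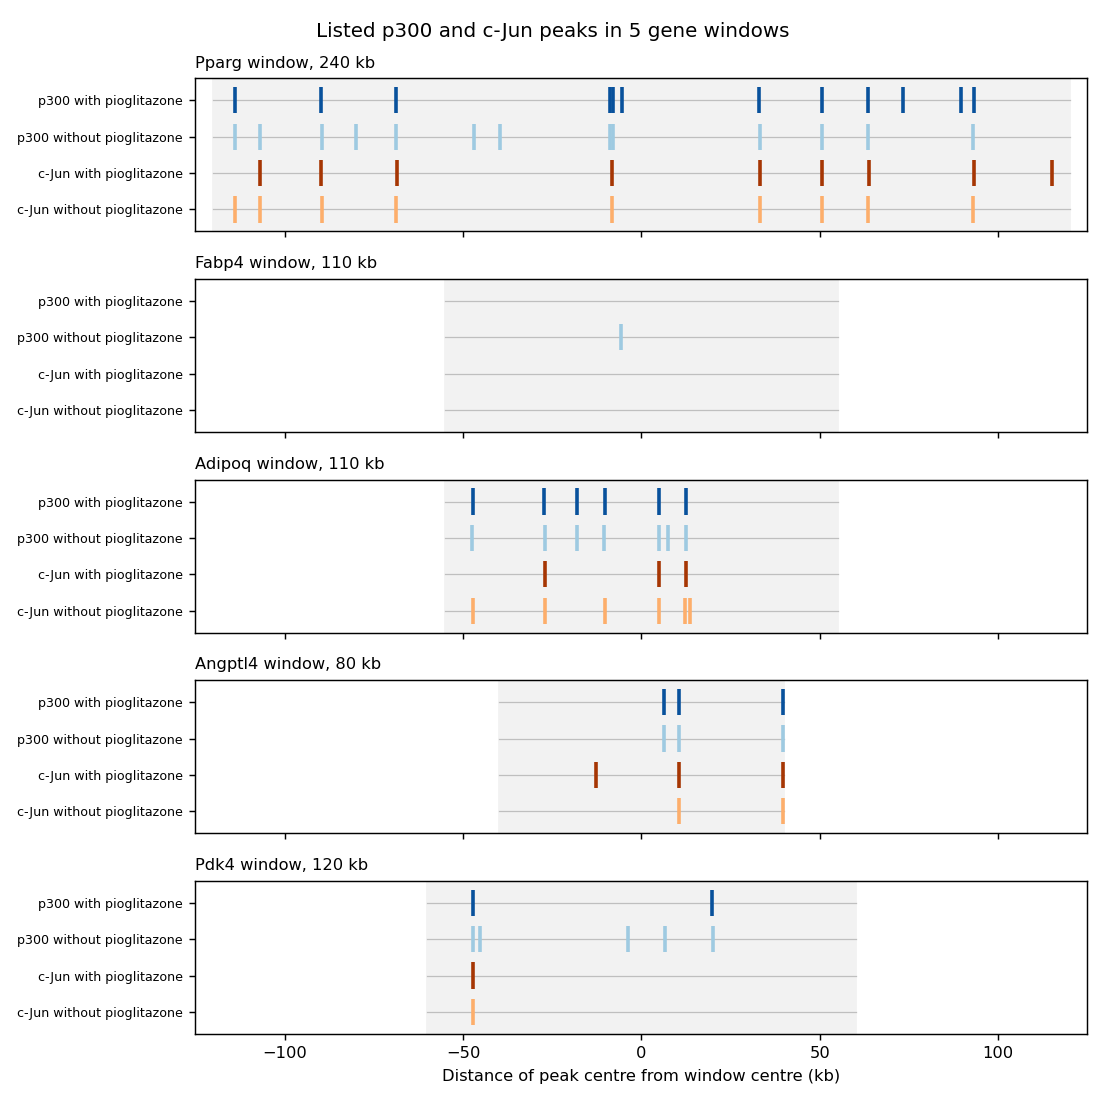
Each vertical tick is the centre of 1 listed peak, placed by its distance in kb from the centre of its window (horizontal axis), with 1 row per list and the window shaded. Ticks that align down all 4 rows mark the 13 sites in all 4 lists, and the Fabp4 panel holds 1 tick.

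The order of rows in a list was used as a stand-in for peak strength, since the deposited score is 1 throughout, and a row position is given as a percentage of its own list, with 0% at the first row. The sorting key is not stated anywhere, and positions in lists of different length are not compared as a change. The p300 peaks of the 5 windows stood mostly in the upper part of their lists, 21 of 23 (91.3%, exact 95% interval 72.0 to 98.9) in the first 50% of rows with pioglitazone and 21 of 29 (72.4%, 52.8 to 87.3) without it. The c-Jun peaks did so in 10 of 16 (62.5%, 35.4 to 84.8) with pioglitazone and 10 of 18 (55.6%, 30.8 to 78.5) without it. Any whole list has 50% there by construction. Intervals in the text cover counting error only, and peaks of 1 window are not independent.

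**Figure D3:**
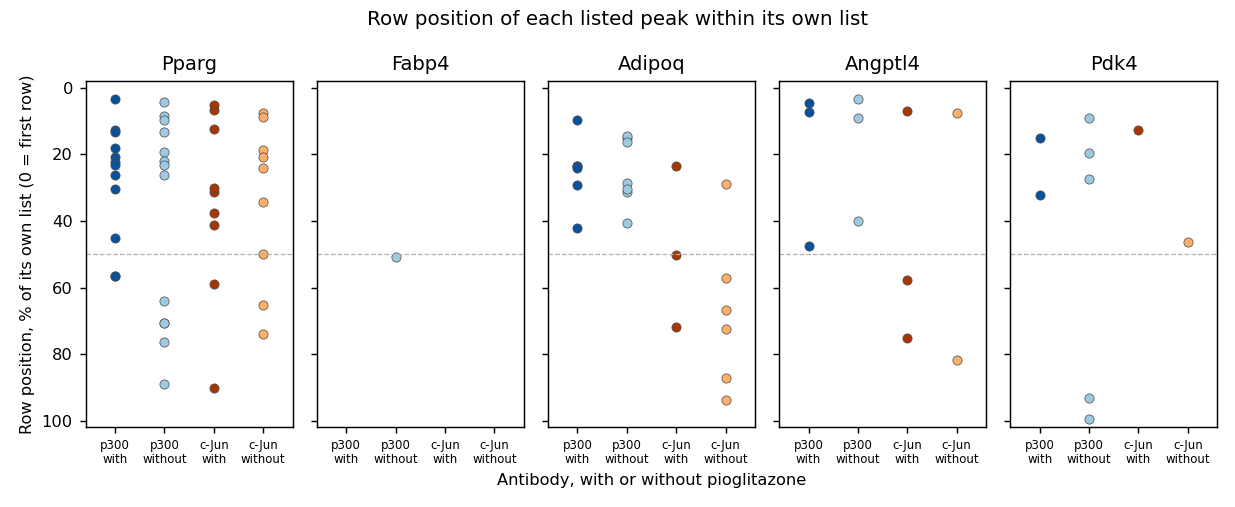
Each point is 1 listed peak, placed by its row position as a percentage of its own list (vertical axis, first row at the top), for the 4 lists (horizontal axis) in each window. The dashed line marks 50%, and the p300 peaks with pioglitazone lie between 3.40% and 56.4%.

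Site 12 of the Pparg window was the uppermost site of that window in all 4 lists. It lay on chromosome 6 from 115430340 to 115430674, and the peaks stood at row 748 of the p300 list with pioglitazone and row 1308 of the one without it. For c-Jun they stood at row 680 with pioglitazone and row 1295 without it. These rows fall within the first 3.40% to 7.60% of their lists. The centres of the c-Jun and p300 peaks were 104 bp apart with pioglitazone and 2 bp apart without it.

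The next Pparg sites differed between the factors. For p300, sites 1 (115265878 to 115266215) and 9 (115371686 to 115372045) followed, at rows 2812 and 2924 with pioglitazone and rows 2649 and 3082 without it. For c-Jun with pioglitazone, sites 11 (115412845 to 115413397) and 13 (115443458 to 115443769) followed, at rows 889 and 1642. For c-Jun without pioglitazone, site 13 stood at row 1486, site 1 at row 3201 and site 11 at row 3526. At site 11 the p300 peaks stood at 56.4% of the list with pioglitazone and 21.9% of that without it. Its c-Jun peaks stood at 6.67% with pioglitazone and 20.7% without it. No change between treatments is read from these positions.

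Several Pparg sites had a pattern found nowhere else in that window. Site 1 had p300 in both lists and had c-Jun without pioglitazone only, with the nearest c-Jun peak of the other list 7042 bp away. Site 2 (115272962 to 115273250) had c-Jun in both lists, at rows 4189 with pioglitazone and 5862 without it, and p300 without pioglitazone only, at row 22209. Site 8 (115371037 to 115371316) had p300 in both lists and no c-Jun, and its p300 centre lay 653 bp from the nearest c-Jun centre with pioglitazone and 677 bp without it. That neighbouring c-Jun peak belonged to site 9, so sites 8 and 9 formed a pair with c-Jun on 1 member. Site 17 (115494556 to 115494790), near the window's edge, had c-Jun with pioglitazone only, at row 5009.

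The Pparg window also held p300 sites of 1 treatment only. Sites 10 (115374496 to 115374722), 14 (115453143 to 115453369) and 15 (115469496 to 115469722) had p300 with pioglitazone alone, at rows 6719, 12412 and 5094 of 21994. Sites 4 (115299754 to 115300000), 6 (115332843 to 115333089) and 7 (115340289 to 115340535) had p300 without pioglitazone alone, at rows 20107, 28024 and 24005 of 31466. Relative to the window's centre, the sites with pioglitazone alone lay at -5.39, 73.3 and 89.6 kb, and those without it at -80.1, -47.0 and -39.6 kb. These 6 sites are named because of their values and not by the rule that fixed the other names. In the 10% steps of the list that hold sites 4, 6 and 7, between 64.7% and 80.7% of all p300 peaks had no counterpart with pioglitazone. For the sites with pioglitazone alone, the p300 peaks of the step without a counterpart numbered 387 of 2199 (17.6%) for site 10, 660 of 2200 for site 14 and 244 of 2200 (11.1%) for site 15, where the whole list had 26.9%.

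Sites 3 (115290168 to 115290535), 5 (115311046 to 115311560) and 16 (115472749 to 115473377) completed the Pparg window, with all 4 lists at each. At site 16 the centres of the p300 peaks of the 2 treatments were 392 bp apart and the peaks were joined through the c-Jun peaks between them. At site 5 the centres of the c-Jun peaks were 253 bp apart, and they were joined through p300. Such pairs do not overlap each other and count as unshared in the overlap counts given further on.

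Adipoq had fewer listed c-Jun peaks with pioglitazone than without it, 3 against 6. Sites 3 (chromosome 16, 23127717 to 23128142), 6 (23159802 to 23160124) and 8 (23167194 to 23167537) had c-Jun and p300 in both treatments. Their c-Jun peaks stood at rows 3128, 9549 and 6688 of 13325 with pioglitazone, and at rows 9750, 15983 and 12321 of 17044 without it. Site 5 (23144459 to 23144803) had p300 in both treatments, at rows 5284 with pioglitazone and 9532 without it, and had c-Jun without pioglitazone only, at row 11353. Site 9 (23168504 to 23168752) had c-Jun without pioglitazone and nothing else, at row 14843. In the steps holding sites 5 and 9, 68.4% and 78.8% of all c-Jun peaks had no counterpart with pioglitazone.

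At the left of the Adipoq window, c-Jun was listed without pioglitazone at row 4946, the highest c-Jun row of this window without pioglitazone. In its step, 39.1% of all c-Jun peaks had no counterpart with pioglitazone, a smaller share than for sites 5 and 9. The peak lay in site 2 (23107622 to 23107993), together with a p300 peak listed with pioglitazone at row 5153. The p300 peak without pioglitazone was 358 bp away, centre to centre, and formed site 1 (23107254 to 23107500). p300 was highest at site 8 with pioglitazone, at row 2104, and at site 6 without it, at row 4526. Site 4 (23136693 to 23136967) had p300 at rows 5154 with pioglitazone and 4790 without it, and its nearest c-Jun centre was 8885 bp away with pioglitazone and 7831 bp away without it. Site 7 (23162277 to 23162523) had p300 without pioglitazone alone, at row 12784.

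Of all member sites, site 12 of Pparg stood highest for both factors with pioglitazone, and site 3 of Angptl4 did so without it. For c-Jun without pioglitazone the lead was small, at row 1280 against row 1295 for site 12 of Pparg. Site 3 (chromosome 17, 33920391 to 33920678) had p300 at row 1037 with pioglitazone and row 1033 without it, and c-Jun at row 944 with pioglitazone and row 1280 without it. The p300 and c-Jun centres were 17 bp apart with pioglitazone and 27 bp apart without it. Site 2 (33916290 to 33916559) lay 4110 bp to its left, centre to centre, with p300 at row 1584 with pioglitazone and row 2880 without it, and no c-Jun. Site 4 (33949520 to 33949836), close to the edge of the window, had p300 at rows 10417 with pioglitazone and 12548 without it, and c-Jun at rows 10010 with pioglitazone and 13909 without it. Site 1 (33897099 to 33897333) had c-Jun with pioglitazone alone, at row 7695 of 13325. In its step, 47.6% of all c-Jun peaks had no counterpart without pioglitazone.

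In the full lists Pdk4 showed the largest difference in p300 peak number among the 5 windows, with 2 listed with pioglitazone against 5 without it. This ranking depends on list length, since the peaks at rows 29302 and 31266 lie beyond the 21994 rows of the list with pioglitazone. At equal list lengths the Pparg window differed more. Site 1 (chromosome 6, 5392703 to 5392981) was in all 4 lists. Its p300 peaks stood at rows 3303 with pioglitazone and 2863 without it, and its c-Jun peaks at rows 1686 of 13325 with pioglitazone and 7870 of 17044 without it. Site 5 (5459782 to 5460120) had p300 at rows 7105 with pioglitazone and 29302 of 31466 without it. Sites 2 (5394543 to 5394789), 3 (5436100 to 5436346) and 4 (5446407 to 5446653) had p300 without pioglitazone alone, at rows 6145, 31266 and 8646. Site 3 was thus near the end of its list. Sites 2 and 4 were not: in their steps 12.4% and 26.4% of all p300 peaks had no counterpart with pioglitazone. No other site of this window had c-Jun.

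Fabp4 was the exception. The single p300 peak, on chromosome 3 from 10199177 to 10199423, stood at row 16031 of 31466 without pioglitazone, in a step where 56.0% of all p300 peaks had no counterpart with pioglitazone. The nearest p300 peak with pioglitazone was 60690 bp away. Before the window, the closest peaks lay 11.4 kb from its edge for p300 with pioglitazone and 11.5 kb for p300 without it. The closest c-Jun peaks on that side were 23.8 kb away with pioglitazone and 24.5 kb without it. After the window, the first p300 peak lay 128 kb from its edge with pioglitazone and 71.3 kb without it, and the first c-Jun peak 128 kb with pioglitazone and 82.3 kb without it. The lists cannot tell a site without binding from one below the threshold of the peak caller.

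Set against each whole list, p300 peaks of the 5 windows were shared between treatments at rates whose intervals include the whole-list rate. With pioglitazone, 5 of 23 (21.7%, exact 95% interval 7.46 to 43.7) did not overlap a p300 peak without it, where 26.9% of the whole list did not. Without pioglitazone, 11 of 29 (37.9%, 20.7 to 57.7) did not overlap one with it, where 48.9% of the whole list did not. Averaged over the 10% steps in which the p300 peaks stood, the unshared share was 12.4% with pioglitazone and 33.9% without it. These values lie below the shares in the windows, where the whole-list values lie above them, and are also inside the intervals. For c-Jun with pioglitazone, 3 of 16 (18.8%, 4.05 to 45.6) had no counterpart, where 41.6% of the whole list and 34.2% over the same steps had none. For c-Jun without pioglitazone, 5 of 18 (27.8%, 9.69 to 53.5) had none, where 54.3% of the whole list had none. That whole-list value lies just above the interval, but averaged over the 10% steps in which the 18 peaks stood it was 50.8%, which lies inside it.

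**Figure D4:**
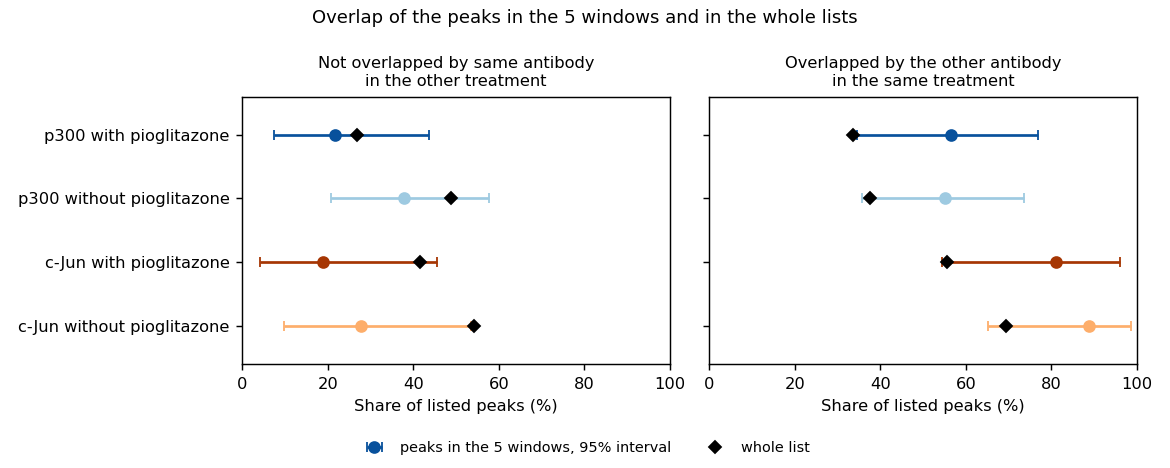
Points are the share of listed peaks in the 5 windows (horizontal axis, %) with exact 95% intervals, and diamonds the share in the whole list, for peaks without a counterpart in the other treatment (left) and for peaks on the other antibody (right). On the left the diamond for c-Jun without pioglitazone, 54.3%, is just beyond the interval, and on the right that for p300 with pioglitazone, 33.7%, is just below it.

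c-Jun peaks of these windows lay mostly on p300, as did those of the whole lists. With pioglitazone 13 of 16 (81.2%, 54.4 to 96.0) overlapped a p300 peak, where 55.5% of the whole c-Jun list did. Without pioglitazone 16 of 18 (88.9%, 65.3 to 98.6) did, where 69.4% of the whole list did. Both whole-list values lie inside the intervals. Over the same 10% steps, 61.3% of c-Jun peaks with pioglitazone and 70.7% without it lay on p300. Seen from p300, 13 of 23 peaks with pioglitazone (56.5%, 34.5 to 76.8) lay on c-Jun, where 33.7% of the whole list did, and 46.8% did over the same 10% steps. Without pioglitazone 16 of 29 (55.2%, 35.7 to 73.6) did, where 37.6% of the whole list did, and 49.8% did over the same 10% steps. Only the whole-list value for p300 with pioglitazone lies outside its interval, and its value over the steps lies inside. Where both factors overlapped, their centres were a median of 88 bp apart with pioglitazone (13 pairs, 13 to 217 bp) and 35 bp without it (16 pairs, 2 to 162 bp). The whole lists gave medians of 47 bp with pioglitazone and 40 bp without it.

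As in the whole lists, peaks without pioglitazone that lay on the other factor were shared between treatments more often than those off it. Of the 16 p300 peaks on c-Jun, 14 (87.5%, 61.7 to 98.4) overlapped a p300 peak with pioglitazone, and of the 13 p300 peaks off c-Jun 4 (30.8%, 9.09 to 61.4) did. The whole list gave 74.1% on c-Jun and 37.2% off it, both inside these intervals. Of the 16 c-Jun peaks on p300, 13 (81.2%, 54.4 to 96.0) overlapped a c-Jun peak with pioglitazone, and of the 2 off p300 0 did. The 2 are those at sites 2 and 9 of Adipoq. In the whole c-Jun list the shares were 56.3% on p300, also inside the interval, and 21.5% off it. These shares are not adjusted for row position.

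The p300 difference summed over the windows, 23 peaks with pioglitazone against 29 without it, was not seen at equal list lengths. With the longer list shortened from its end to the length of the shorter, 23 p300 peaks were left in each treatment. This equal sum hid opposite differences between windows. For Pparg the cut left fewer p300 peaks without pioglitazone than with it, since rows 22209, 22210, 24005 and 28024 lie beyond row 21994. For Adipoq, Fabp4 and Pdk4 it left more without pioglitazone, and Angptl4 had equal numbers. For c-Jun the same step gave 16 peaks with pioglitazone against 15 without it, where the full lists had 16 against 18. Such a cut removes the last rows, and the sorting key of the rows is not stated. Whether list length accounts for the difference was not tested. A window can also hold parts of neighbouring genes. No peak was assigned to a gene, because no mm9 annotation was used here.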

How the data were processed

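ChIP-seq peak lists of 4 libraries were analysed; no file of the pooled input was used here. The submitters' processing notes name build mm9, HOMER, SAMtools 1.9 and Bowtie2 2.3.4.3; peak caller settings and use of the input were not given in the sources used here. The authors deposited 1 list per library, with positions and a score that is 1 in every row. Peak widths are constant within a list, from 227 to 249 bp. Read depth is unknown.

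Windows, overlaps (at least 1 bp), sites and row positions were computed in Python (version 3.11.15; numpy 2.4.6, scipy 1.17.1, matplotlib 3.10.9). The overlap function was tested on simulated data and gave the same number as bedtools (version 2.31.1) in 16 of 16 comparisons. Densities use chromosome spans up to the last listed peak, with the Y left out. Intervals are exact (Clopper-Pearson). With 1 library per group no test across libraries was made. Alternatives changed the rows kept, the list length, the window limits and the overlap.

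The members and lists were chosen with earlier results of these data known. All peaks of windows with up to 12 peaks were named. In larger windows the 3 uppermost peaks per list and every site with a pattern of its own were named. A planned count at other PPAR target genes, and a motif search in the peaks, were not run, because no mm9 annotation or genome was used here.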

Additional observations from a re-analysis of the deposited data

Results flagged for a closer look

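Site 2 of the Adipoq window was picked out because the antibodies went opposite ways there. The number of listed p300 peaks with minus without pioglitazone was 1, and that of c-Jun peaks was -1. This difference was not tested, since each group is 1 library. The p300 peak without pioglitazone had its centre 358 bp from the one with pioglitazone and formed the neighbouring site 1. The pattern of p300 with pioglitazone and c-Jun without it was seen at 445 of the 44718 sites of the series (0.995%).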

How the results depend on the processing

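The count differences and shares, 6 results in all, were recomputed under alternatives that gave 44 values. The c-Jun difference with minus without pioglitazone, -2 as listed, became 1 at equal list lengths, where the c-Jun list without pioglitazone loses its last rows, and 0 with the first 50% of rows of each list. The p300 difference, -6 as listed, became 0 at equal list lengths and with the first 50% of rows, -8 in windows widened by 25 kb and -5 in windows narrowed by 25%. The shares of peaks listed in both treatments ranged from 58.6% to 71.4% for p300 and from 61.1% to 80.0% for c-Jun. The share of c-Jun peaks on p300 ranged from 56.2% to 87.5% with pioglitazone and from 77.8% to 94.4% without it. All of these shares stayed inside the interval of the value as listed. They were drawn largely from the same peaks and the intervals are wide, so this is a weak check. The lowest share, 56.2% (9 of 16), came from requiring an overlap of 50% of both peaks. Leaving out the Pparg window, an alternative chosen after seeing the data, gave differences of -5 for p300 and -2 for c-Jun. No paired analysis was possible because each group is 1 library. With 16 to 29 peaks per list in these windows, differences of a few peaks cannot be told from counting error.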
